A study of Mus musculus with 2 samples.

Results

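The ErbB receptors and their ligands were followed as a group of 10 genes, chosen by symbol from the 32285 genes of the matrices: the 4 receptors *Egfr*, *Erbb2*, *Erbb3* and *Erbb4*, and the 6 ligands *Nrg1*, *Hbegf*, *Areg*, *Btc*, *Tgfa* and *Egf*. ErbB receptors are cell surface tyrosine kinases that pair with each other when a ligand binds and then signal through the RAS and ERK pathway and through phosphoinositide 3-kinase. EGFR takes EGF, TGFα, amphiregulin (*Areg*), betacellulin (*Btc*) and HB-EGF, the last 2 of which also bind ERBB4. Neuregulin 1 (*Nrg1*) binds ERBB3 and ERBB4, ERBB2 has no ligand of its own, and ERBB3 has little kinase activity and depends on its partner. In the liver, hepatocytes are known for EGFR and ERBB3, and signalling through EGFR for its part in regeneration.

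The data were snRNA-seq counts of 2 libraries, 1 per genotype, from livers of male C57BL6/J mice with diet-induced MASH. Flox mice carried *Themis* flox/flox and HKO mice *Themis* Alb-Cre, in which the albumin promoter drives Cre in hepatocytes, and mice of both genotypes ate the same MASH diet for 5 months from an age of 10 to 12 weeks (40 kcal% fat, 20 kcal% fructose, 2% cholesterol). The library whose genotype is given as flox/flox, and which is called Flox here, has WT in its title. Liver tissue of several mice was pooled per genotype, so that mice could not be told apart and the genotype could not be told apart from any other difference between the libraries. Differences between the groups thus rest on 1 library each and could not be tested, and intervals below are 95% intervals for counting error only. Pairs of values give the library labelled Flox first and that labelled HKO second.

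The members were measured in 8659 and 9801 nuclei, whose median depth was 5959 and 1971 UMIs (unique molecular identifiers, 1 per counted transcript). The libraries shared 27 barcodes. *Themis*, the gene to be deleted, was not lower in the library labelled HKO: hepatocyte nuclei held it at 163 and 246 CPM (UMIs of the gene per 1000000 UMIs of the nuclei summed). Counts were taken near the 3′ end and the deleted part is not given in the sources used here, so these values do not check the deletion, and the libraries are named by their labels throughout. Nuclei were called by the markers they resembled. Hepatocyte-like nuclei numbered 5847 and 4501, endothelial 751 and 1218, hepatic stellate cells (HSC) 782 and 1136, macrophage 617 and 1588, cholangiocyte 96 and 454, T cell 121 and 201, and B cell 61 and 85, and 315 and 539 nuclei stayed unassigned. RNA that was not the nucleus's own was present: T cells, which do not express *Alb*, held it at 1028 and 582 CPM, where hepatocytes held 2095 and 1637 CPM.

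All 10 members had UMIs in both libraries. *Egfr* (chromosome 11, 16752203 to 16918158, GRCm38, plus strand), *Erbb3* (chromosome 10, 128567523 to 128589652, minus strand) and *Nrg1* (chromosome 8, 31814551 to 32884029, minus strand) gave most of them. No exon of a member overlapped an exon of another gene on the same strand in the GENCODE M21 annotation, while exons of *Erbb2*, *Nrg1*, *Tgfa* and *Egf* overlapped those of genes on the other strand. *Areg* (chromosome 5, 91139599 to 91148432, plus strand) and *Btc* (chromosome 5, 91357261 to 91402994, minus strand) lie near each other.

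The 250 bases upstream of the annotated start are shown for *Egfr*, the member at least 2-fold lower in hepatocytes of the library labelled HKO, and for *Areg* and *Btc*, both higher there. The sequences are those of RefSeq for GRCm38.p6, which had an entry for 7 of the 10 members, and run 5′ to 3′ on the strand of the gene. Capitals mark matches to the cAMP response element (TGACGTCA, both strands), the AP-1 element (TGANTCA, both strands) or the TATA element (TATAAA, strand of the gene). The letters of these motifs are such that no match can share bases with a match of another.
Egfr, chr11:16751953-16752202, plus strand: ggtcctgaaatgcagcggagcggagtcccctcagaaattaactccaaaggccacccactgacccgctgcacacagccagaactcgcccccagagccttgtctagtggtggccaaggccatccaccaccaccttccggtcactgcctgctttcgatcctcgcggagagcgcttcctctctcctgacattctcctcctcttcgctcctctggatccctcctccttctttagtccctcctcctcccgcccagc
Areg, chr5:91139349-91139598, plus strand: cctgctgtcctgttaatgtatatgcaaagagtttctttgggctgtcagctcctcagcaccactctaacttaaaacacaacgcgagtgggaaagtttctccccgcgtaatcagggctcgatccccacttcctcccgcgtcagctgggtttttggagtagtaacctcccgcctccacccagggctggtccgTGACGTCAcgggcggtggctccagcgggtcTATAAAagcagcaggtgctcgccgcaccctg
Btc, chr5:91402995-91403244, minus strand: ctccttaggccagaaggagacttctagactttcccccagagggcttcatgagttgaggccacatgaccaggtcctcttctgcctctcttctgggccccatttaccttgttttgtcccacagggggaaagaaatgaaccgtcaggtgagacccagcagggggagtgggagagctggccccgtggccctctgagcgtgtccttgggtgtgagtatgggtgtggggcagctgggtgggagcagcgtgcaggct

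The window of *Areg* held 1 cAMP response element, ending 53 bases before the start, and 1 TATA element, ending 25 bases before it. The windows of *Egfr* and *Btc* held no match to any of the 3 motifs. Among the 32851 windows of the table, 1.55% held the cAMP response element, 6.75% the AP-1 element and 7.59% the TATA element. The windows of *Egfr*, *Areg* and *Btc* were 60.8%, 57.2% and 59.6% G or C.

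In the library labelled HKO, hepatocytes held less *Egfr* and more *Nrg1*, the members with the lowest and the highest ratio of those with at least 200 UMIs. *Egfr* stood at 356 CPM (350 to 361, 16365 UMIs) and 92.6 CPM (89.1 to 96.3, 2549 UMIs), with the ratio at 0.260 (0.2497 to 0.2715), or 3.84-fold lower. *Nrg1* stood at 14.5 CPM (13.4 to 15.6, 665 UMIs) and at 89.7 CPM (86.2 to 93.3, 2468 UMIs), a ratio of 6.20 (5.69 to 6.77). Among 11225 genes that reached this number of UMIs, 53 had a ratio as low as that of *Egfr* or lower, and 25 a ratio as high as that of *Nrg1* or higher (each count includes the member itself). *Cdkn1a*, which encodes the cell cycle inhibitor p21, stood beside them at 11.4 and 41.3 CPM.

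Of the 7 members with at least 200 UMIs in hepatocytes, 2 (*Nrg1* and *Btc*) were at least 2-fold higher and 1 (*Egfr*) at least 2-fold lower in the library labelled HKO. Over all 11225 genes compared, 2.6% (292 genes) were at least 2-fold higher and 2.72% (305 genes) at least 2-fold lower. The median log2 ratio was 0.32 for the 7 members and -0.02 for all genes compared. The members thus differed in both directions.

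**Figure D1:**
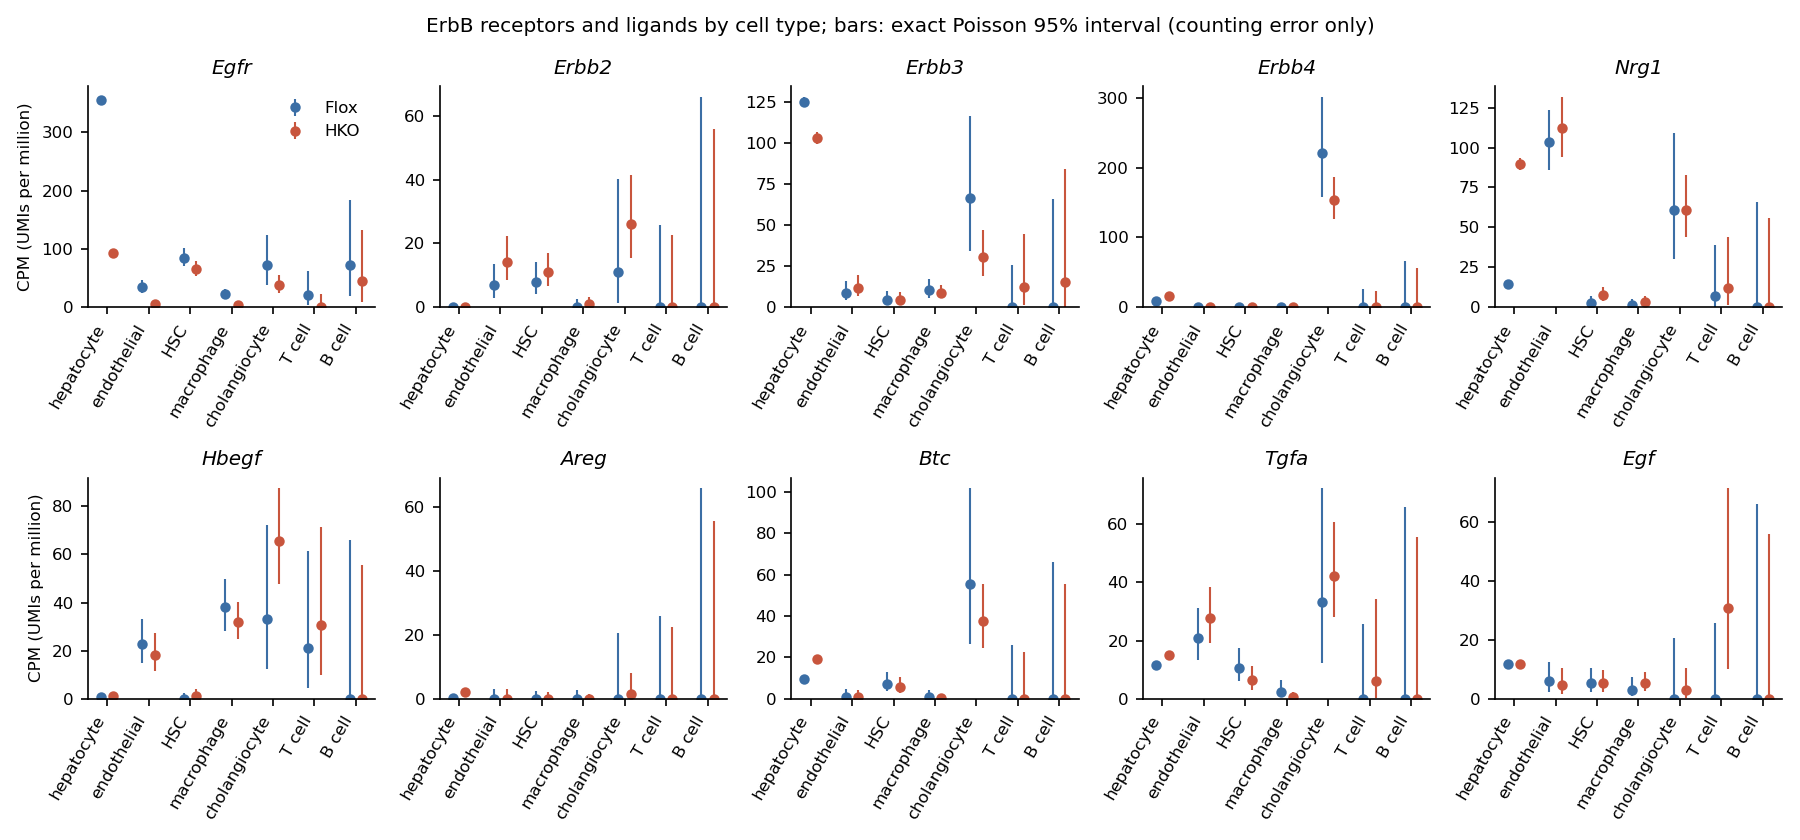
CPM of each of the 10 members (vertical axis, UMIs per 1000000 UMIs, a scale of its own for each gene) in 7 cell types, with the library labelled Flox in blue and that labelled HKO in red; points are summed counts of 1 library and bars exact Poisson 95% intervals for counting error. *Egfr* in hepatocytes stands at 356 and 92.6 CPM, *Nrg1* at 14.5 and 89.7 CPM, and *Erbb4* is highest in cholangiocytes in both libraries.

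Among the receptors, *Egfr* was a hepatocyte gene first. Hepatocytes held 97.9% and 92.8% of its UMIs in kept nuclei. After each nucleus had been thinned to 1000 UMIs, 27.2% (1581 of 5818) and 8.53% (378 of 4431) of hepatocyte nuclei had an *Egfr* UMI, against 78.3% and 33.9% before thinning. HSC came next, at 85.02 CPM (70.9 to 101, 127 UMIs) and 65.3 CPM (53.8 to 78.5, 113 UMIs), and the interval of its ratio of 0.768 (0.591 to 0.998) ends just under 1. Cholangiocytes held 72.1 and 37.8 CPM (13 and 26 UMIs), with intervals that overlap those of HSC in both libraries. B cells, on 4 and 3 UMIs, held 71.6 and 45.3 CPM. *Egfr* was the only member with at least 200 UMIs in HSC and did not pass 2-fold there, where 2.52% of 2701 genes did in either direction.

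*Egfr* was also counted in endothelial nuclei, at 33.9 and 5.52 CPM (39 and 7 UMIs), and in macrophages, at 22.6 and 3.93 CPM (31 and 9 UMIs). After thinning it was found in 2.76% and 0.729% of endothelial and in 1.87% and 0.328% of macrophage nuclei. B and T cells, which should lack it, gave 1 of 92 nuclei (1.09%, 0.0275 to 5.91) and 1 of 52 (1.92%, 0.0487 to 10.3), at median depths of 1016.5 and 710.5 UMIs before thinning, against 1350 and 970 UMIs in endothelial nuclei. Endothelial, macrophage and cholangiocyte shares (3.16% and 3.82% in the last) lie inside those intervals, and *Egfr* in these types could not be told from background by that reference. The HSC shares, 7.96% (6.15 to 10.1) and 6.61% (5.13 to 8.36), stood above the interval of B and T cells in the library labelled Flox and inside the wide one, from 52 nuclei, in that labelled HKO. They exceeded the macrophage shares in both. Cholangiocyte intervals lay above those of macrophages in the library labelled HKO (2.15 to 6.22% against 0.0896 to 0.839%). They overlapped in that labelled Flox (0.656 to 8.95% and 0.939 to 3.33%).

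*Erbb3*, the neuregulin receptor of hepatocytes, differed less between the libraries than *Egfr*. Its levels in hepatocytes were 125 CPM (122 to 128, 5740 UMIs) and 103 CPM (99.0 to 107, 2827 UMIs), with the ratio at 0.823 (0.787 to 0.861). Hepatocytes held 98.4% and 96.8% of its UMIs, and 10.6% and 9.46% of thinned hepatocyte nuclei had one. Cholangiocytes followed with 66.5 and 30.6 CPM on 12 and 21 UMIs, at a ratio of 0.459 (0.216 to 1.02). They also held *Alb* at 1613 and 790 CPM, and the part of free RNA in their *Erbb3* was not tested. After thinning, 7.37% (3.01 to 14.6) and 3.31% of them had *Erbb3*, against B and T cell intervals of up to 3.93% and of 0.0487 to 10.3%. The second share could not be told from background by that reference. In the other types with at least 50 nuclei the *Erbb3* level was at most 15.1 CPM.

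*Erbb4* was the receptor of cholangiocytes, the cells that line bile ducts. There it stood at 222 CPM (158 to 302, 40 UMIs) and 154 CPM (126 to 187, 106 UMIs), and 17.9% and 11.7% of thinned nuclei had a UMI. Hepatocytes held it at 8.95 CPM (8.11 to 9.86) and 15.9 CPM (14.5 to 17.5), with the ratio at 1.78 (1.55 to 2.04), and since hepatocytes were far more numerous they gave 89.2% and 77.5% of its UMIs. Endothelial nuclei had no *Erbb4* UMI in either library, which allows up to 2.61 and 2.36 CPM. Cholangiocyte nuclei made up 1.11% and 4.63% of kept nuclei and gave 8.66% and 18.8% of all *Erbb4* UMIs.

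*Erbb2*, the shared partner, was hardly counted in hepatocytes: 4 UMIs in 5847 nuclei (0.0869 CPM, 0.0237 to 0.223) and 6 in 4501 (0.218 CPM, 0.0800 to 0.475). After thinning it was in 0 of 5818 and 0 of 4431 hepatocyte nuclei, which allows shares of up to 0.0516% and 0.0677%. Its UMIs lay in HSC (12 and 19), endothelial nuclei (8 and 18) and cholangiocytes (2 and 18). The highest level was that of cholangiocytes in the library labelled HKO, 26.2 CPM (15.5 to 41.4). The ratio between libraries had an interval that held 1 in hepatocytes, endothelial nuclei, HSC and cholangiocytes.

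Among the ligands, *Nrg1* was highest in 3 types. Endothelial nuclei led the types with at least 50 nuclei, at 103 CPM (85.7 to 124, 119 UMIs) and 112 CPM (94.3 to 132, 142 UMIs), with a ratio of 1.08 (0.842 to 1.39). *Nrg1* was the only member with at least 200 UMIs there and did not pass 2-fold, where 0.995% of 2412 genes did in either direction. Cholangiocytes held 61.0 CPM (11 UMIs, not below endothelial nuclei beyond counting error) and 61.1 CPM (42 UMIs), at a ratio of 1.002 (0.507 to 2.16). Hepatocytes, which stood at 14.5 CPM below both in the library labelled Flox, came to 89.7 CPM in that labelled HKO, above cholangiocytes and below endothelial nuclei, with no overlap of the intervals. Unassigned nuclei held 10.1 and 168 CPM (8 and 125 UMIs). The difference between the ratios of hepatocytes and endothelial nuclei was not tested, since each rests on 1 library per group.

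Within endothelial nuclei *Nrg1* was concentrated in those with more UMIs of vascular markers (*Vwf*, *Cd34*, *Sox17*, *Ltbp4*) than of sinusoidal markers. These 71 and 139 nuclei held *Nrg1* at 821 and 599 CPM, against 14.6 and 25.9 CPM in the 654 and 988 sinusoidal-like nuclei, a ratio within the library of 56.2 (32.1 to 105) and 23.1 (14.9 to 37.1). They were 9.45% and 11.4% of endothelial nuclei and gave 64.7% and 61.3% of endothelial *Nrg1* UMIs. Between libraries the vascular-like level had a ratio of 0.729 (0.5305 to 1.004), whose interval held 1.

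HSC, macrophages and T cells held *Nrg1* at 1.46 to 12.3 CPM, on 1 to 13 UMIs per library. Thinned nuclei with an *Nrg1* UMI were 1.39% (81 of 5818) and 6.45% (286 of 4431) in hepatocytes and 4.92% and 3.46% in endothelial nuclei. B and T cells gave 1 of 92 (0.0275 to 5.91%) and 0 of 52 (up to 6.85%). The hepatocyte and endothelial shares lie inside these intervals and could not be told from background by that reference. The hepatocyte share of the library labelled HKO does lie above the 5.77% that 3 counts allow there. In HSC, 0 of 766 (up to 0.480%) and 10 of 968 (0.496 to 1.89%) thinned nuclei had an *Nrg1* UMI. Hepatocyte intervals, 1.11 to 1.73% and 5.75 to 7.22%, lay above those of HSC in both libraries. So did endothelial intervals, 3.39 to 6.87% and 2.10 to 5.35%. Before thinning the hepatocyte shares were 7.99% and 24.9%. The hepatocyte shares had a ratio of 4.64 at 1000 UMIs and of 7.17 at 500 UMIs per nucleus.

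**Figure D2:**
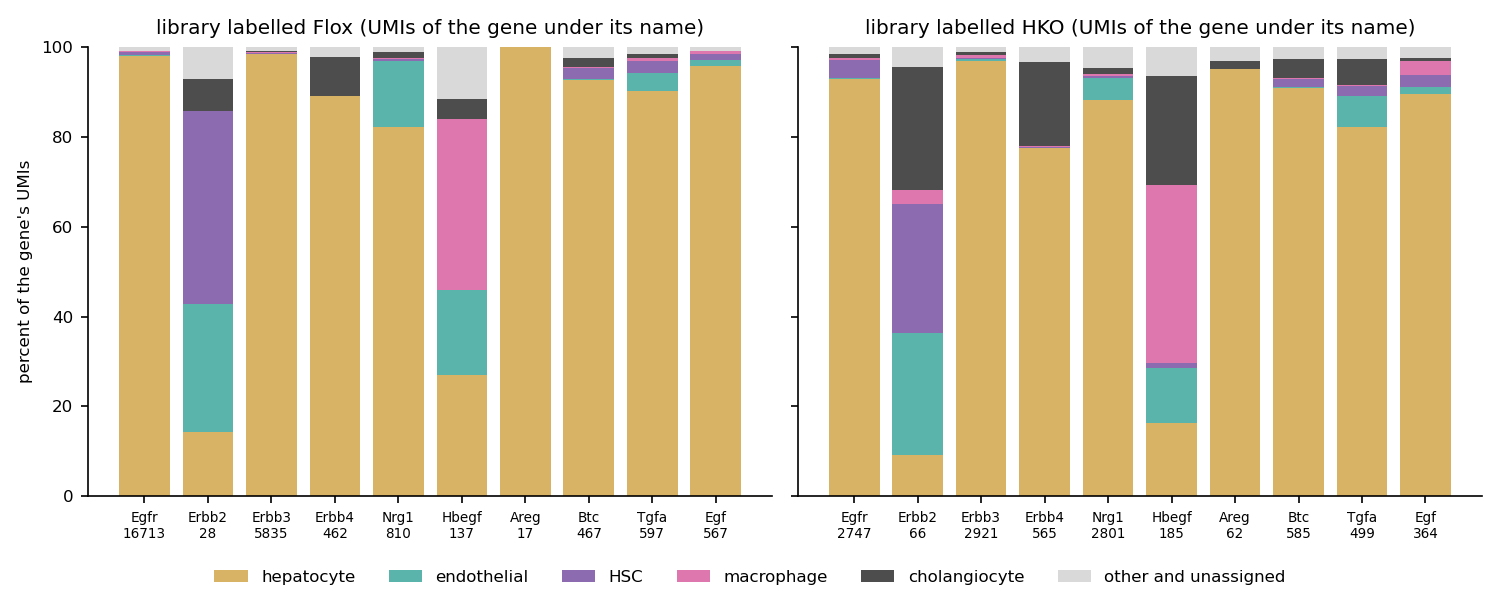
Share of each member's UMIs (vertical axis, percent of its UMIs in kept nuclei) by cell type, for the library labelled Flox on the left and that labelled HKO on the right, with the number of UMIs printed under the gene name. Hepatocytes give 82.1% and 88.1% of *Nrg1* UMIs, while *Hbegf* and *Erbb2* come mostly from other types. Hepatocytes also hold most UMIs of all genes in both libraries.

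By share of UMIs, hepatocytes gave 82.1% (79.3 to 84.7) and 88.1% (86.9 to 89.3) of *Nrg1*, and endothelial nuclei 14.7% and 5.07%. The unassigned nuclei gave 4.46% in the library labelled HKO. Hepatocytes also held most UMIs of all genes, 46010214 and 27520806, where endothelial nuclei held 1150154 and 1268642. Shares of UMIs thus follow the make-up of a library as well as the level in a type. The *Nrg1* sum was unevenly spread over hepatocytes. Nuclei with at least 3 *Nrg1* UMIs were 35 (0.599%) and 234 (5.20%) in number and held 21.5% and 54.9% of the hepatocyte total. Their median depths, 8400 and 6697.5 UMIs, lay above those of all hepatocytes, 7435 and 5796 UMIs.

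*Hbegf*, the heparin-binding ligand of EGFR and ERBB4, had its highest levels outside hepatocytes. Macrophages held it at 38.0 CPM (28.4 to 49.8, 52 UMIs) and 31.9 CPM (73 UMIs), with a ratio of 0.840 (0.580 to 1.22), and gave 38.0% and 39.5% of its UMIs. In macrophages without a UMI of another type's markers the log2 ratio was 0.50 in place of -0.25. In cholangiocytes it stood at 33.3 CPM (6 UMIs) and 65.5 CPM (45 UMIs), with the ratio at 1.97 (0.837 to 5.65). Endothelial levels were 22.6 and 18.1 CPM and T cell levels 20.98 and 30.6 CPM (3 and 5 UMIs). Hepatocytes held 0.804 and 1.09 CPM but, being numerous, gave 27.0% and 16.2% of its UMIs. Thinned macrophages had a UMI in 3.24% and 2.63% and endothelial nuclei in 2.15% and 1.09%, all inside the intervals of B and T cells (1 of 92, 0.0275 to 5.91%, and 0 of 52, up to 6.85%), so that *Hbegf* in these types could not be told from background by that reference. In HSC, 0 of 766 (up to 0.480%) and 2 of 968 (0.0250 to 0.744%) thinned nuclei had one. Macrophage intervals, 1.96 to 5.01% and 1.80 to 3.69%, lay above those of HSC in both libraries. Endothelial intervals lay above those of HSC in the library labelled Flox (1.18 to 3.58%) and overlapped them in that labelled HKO (0.402 to 2.36%). Kupffer-like macrophages (435 and 840 nuclei) held *Hbegf* at 43.5 and 39.0 CPM, and lipid-associated-like macrophages (76 and 439 nuclei) at 36.9 and 26.7 CPM. The ratio of the second to the first was 0.848 (0.296 to 1.99) and 0.685 (0.371 to 1.21), so that the macrophage kinds did not differ beyond counting error.

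*Areg*, whose product binds EGFR alone, was rare, and nearly all its UMIs lay in hepatocytes, which also held most UMIs of all genes. They had 17 of 17 and 59 of 62 of its UMIs, at 0.369 CPM (0.215 to 0.592) and 2.14 CPM (1.63 to 2.77), with the ratio at 5.80 (3.34 to 10.6). With 76 UMIs it fell under the 200 UMIs needed for the 2-fold count. Before thinning 0.222% and 0.867% of hepatocyte nuclei had one, and after thinning 3 of 5818 and 8 of 4431 did. Endothelial nuclei, HSC and macrophages had none, which allows 2.01 to 2.61 and 1.31 to 2.36 CPM. A level like that of hepatocytes was thus not detectable in these types of the library labelled Flox, or in endothelial nuclei of that labelled HKO. In HSC and macrophages of the library labelled HKO, the 1.73 and 1.31 CPM allowed lie under the hepatocyte level of 2.14 CPM. The HSC value lies inside the interval of that level.

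*Btc*, which binds EGFR and ERBB4, was higher in hepatocytes of the library labelled HKO, at 9.41 CPM (8.55 to 10.3, 433 UMIs) and 19.3 CPM (17.7 to 21.05, 532 UMIs). Its ratio of 2.05 (1.81 to 2.34) passed 2-fold with an interval that held 2. Without the nuclei with few zone markers described below, it was 1.77 (1.53 to 2.04) and no longer passed. Cholangiocytes had the highest level of *Btc*, at 55.4 and 37.8 CPM on 10 and 26 UMIs. After thinning, 7.37% (3.01 to 14.6) and 4.07% of them had *Btc*, against B and T cell intervals of up to 3.93% and 6.85%. The second share could not be told from background by that reference. HSC held 7.36 and 5.78 CPM on 11 and 10 UMIs. Hepatocytes, which held most UMIs of all genes, gave 92.7% and 90.9% of the *Btc* UMIs.

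*Tgfa* and *Egf*, the other ligands of EGFR, differed less. *Tgfa* stood at 11.7 CPM (10.7 to 12.7) and 14.9 CPM (13.5 to 16.4) in hepatocytes, a ratio of 1.27 (1.12 to 1.45). Its level was higher in endothelial nuclei, at 20.9 and 27.6 CPM (24 and 35 UMIs), and in cholangiocytes, at 33.3 and 42.2 CPM (6 and 29 UMIs). The Flox interval of cholangiocytes, 12.2 to 72.4 CPM, overlapped that of hepatocytes. After thinning, 2.15% and 2.55% of endothelial nuclei and 3.16% and 5.09% of cholangiocytes had *Tgfa*. Hepatocytes had it in 1.44% and 1.65%. All lie inside the B and T cell intervals, up to 3.93% and 6.85%, and could not be told from background by that reference. *Egf* stood at 11.8 CPM in hepatocytes of either library (543 and 326 UMIs), a ratio of 1.004 (0.872 to 1.15). T cells of the library labelled HKO gave 5 *Egf* UMIs (30.6 CPM, 9.94 to 71.5) and those of the other library none, which allows up to 20.98 CPM.

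**Figure D3:**
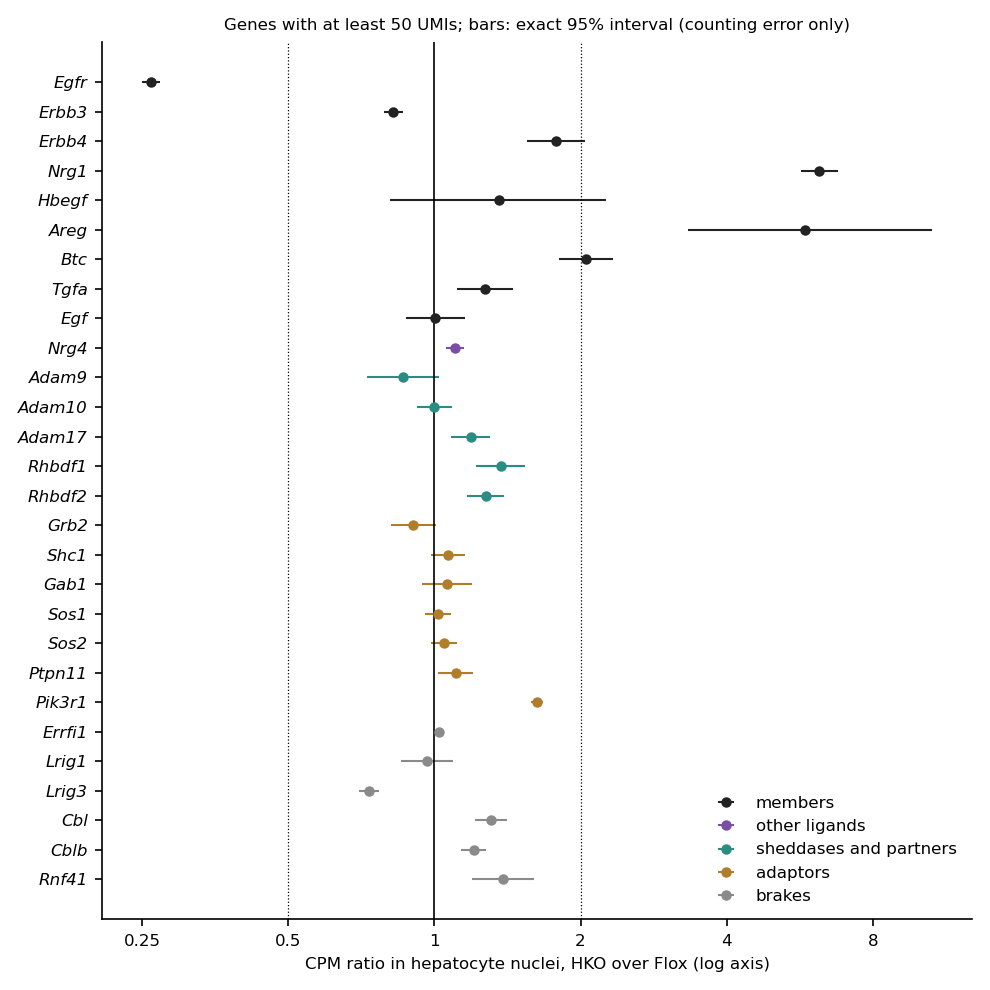
Ratio of hepatocyte CPM, the library labelled HKO over that labelled Flox (horizontal log axis) for members and other pathway genes with at least 50 UMIs; points are ratios of summed counts, bars exact 95% intervals for counting error, and dotted lines mark 0.5 and 2. *Egfr* lies alone at 0.260, *Nrg1*, *Areg* and *Btc* lie beyond 2, and the other pathway genes lie between 0.732 and 1.63.

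Hepatocytes are arranged along the lobule from zone 1 near the portal vein, where amino acid breakdown and urea synthesis prevail, to zone 3 near the central vein, where glutamine synthesis and drug metabolism do. Hepatocyte nuclei were placed by the share of zone 3 markers among UMIs of zone 1 and zone 3 markers. Zone 1 took 1934 and 1023 nuclei, zone 3 took 3116 and 1996, and 423 and 435 lay between. Nuclei in which zone markers made up under 0.1% of UMIs were kept apart and numbered 361 (6.17% of hepatocytes) and 1015 (22.6%). They are a range and not a cell type, with median depths of 6966 and 5521 UMIs, and 616 and 580 zoned nuclei lay within 0.1 of one of the zone limits. A further 13 and 32 nuclei had too few zone marker UMIs to be placed.

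*Egfr* was higher in zone 1 than in zone 3 in both libraries. Its level went from 481 CPM in zone 1 through 430 CPM between the zones to 261 CPM in zone 3 of the library labelled Flox, and from 131 through 108 to 66.9 CPM in that labelled HKO. The ratio of zone 1 to zone 3 was 1.84 (1.78 to 1.91) and 1.95 (1.77 to 2.15), close to each other although the level differed. Between libraries the ratio was 0.272 in zone 1, 0.2505 between the zones, 0.257 in zone 3 and 0.191 in nuclei with few zone markers, so that *Egfr* was lower in every range.

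*Nrg1* also leaned to zone 1, with 23.5, 12.0 and 6.57 CPM in zone 1, between and zone 3 of the library labelled Flox and 68.1, 48.9 and 41.2 CPM in that labelled HKO. The ratio of zone 1 to zone 3 was 3.58 (2.96 to 4.34) and 1.65 (1.45 to 1.88). Nuclei with few zone markers had the highest *Nrg1* level of the ranges in both libraries, 45.1 CPM (117 UMIs) and 233 CPM (1367 UMIs). They held 17.6% (14.8 to 20.7) and 55.4% (53.4 to 57.4) of the *Nrg1* UMIs of hepatocytes. Without them *Nrg1* stood at 12.6 and 50.8 CPM in the remaining hepatocytes, a ratio of 4.03 (3.63 to 4.47) in place of 6.20.

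The other ranges here are zone 1, between the zones and zone 3, without the 13 and 32 nuclei that could not be placed. The nuclei with few zone markers carried more UMIs of the cholangiocyte markers in the library labelled HKO, 68.6 CPM against 30.8 to 50.8 CPM in the other ranges. In that labelled Flox they carried 28.5 against 22.0 to 24.7 CPM. Their endothelial markers, at 23.5 and 25.6 CPM, lay within the span of the other ranges, 22.7 to 30.3 and 25.5 to 32.4 CPM. Hepatocyte markers stood at 8300 and 4892 CPM in them, against 6129 to 9949 and 5199 to 6488 CPM in the other ranges. Among these ranges, markers of disease-associated hepatocytes other than *Nrg1* were highest in nuclei with few zone markers. They stood at 349 CPM against 155 to 254 CPM in the library labelled Flox and at 493 against 160 to 298 CPM in that labelled HKO. *Cdkn1a* was also highest there, at 20.4 and 68.1 CPM. The unplaced nuclei held the disease-associated markers at 466 and 514 CPM. Cholangiocyte markers stood at 266 and 162 CPM in them, and hepatocyte markers at 9852 and 7650 CPM. The part of all these markers in the *Nrg1* level was not tested.

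**Figure D4:**
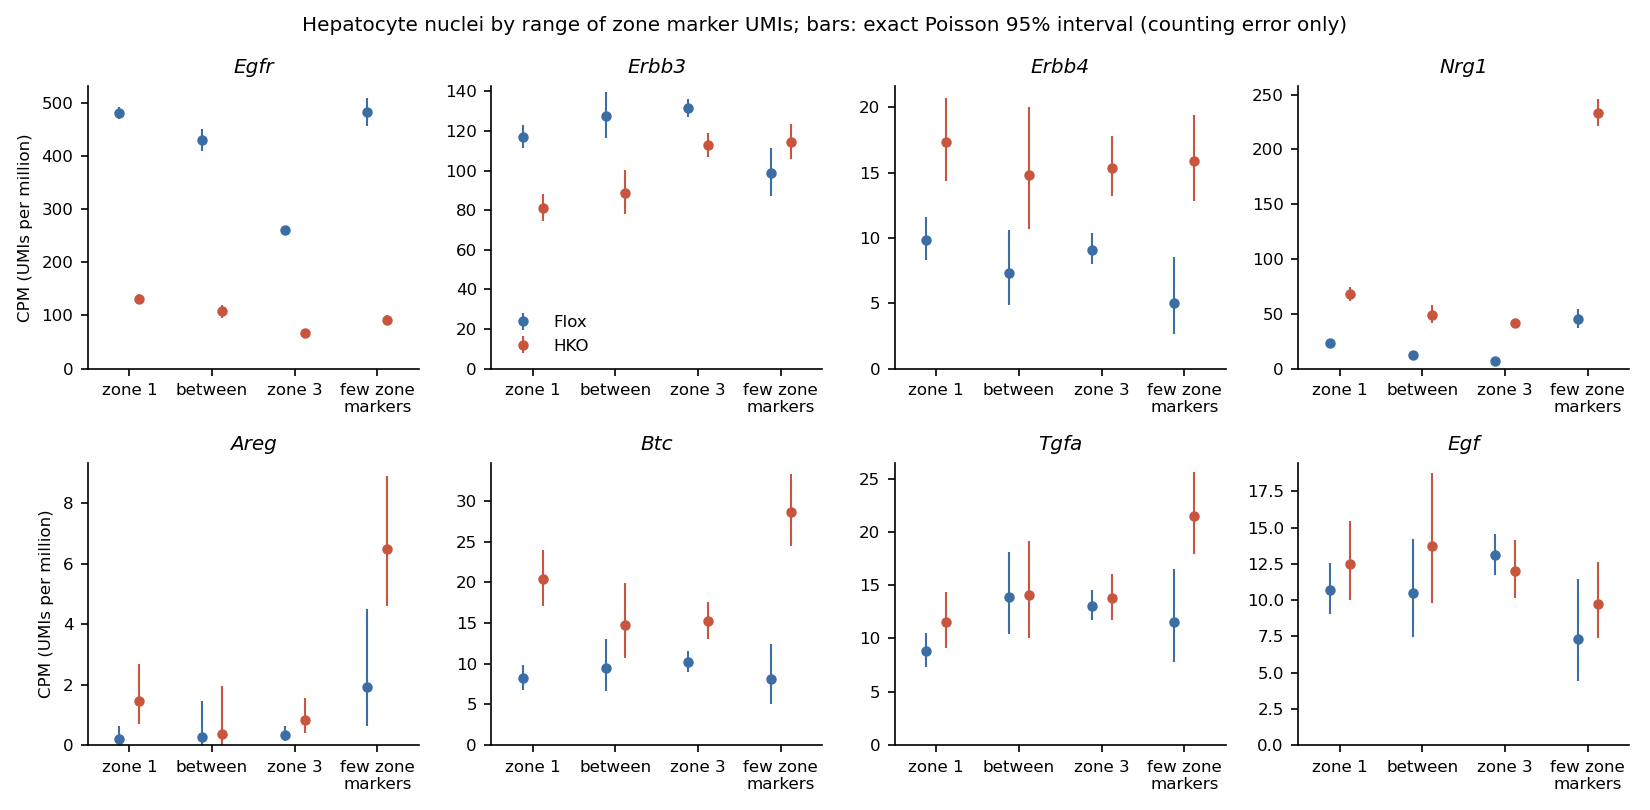
CPM (vertical axis, UMIs per 1000000 UMIs, a scale of its own for each gene) of 8 members in hepatocyte nuclei of zone 1, between the zones, zone 3 and with few zone markers, with the library labelled Flox in blue and that labelled HKO in red and exact Poisson 95% intervals. *Egfr* declines from zone 1 to zone 3 in both libraries, and *Nrg1* is highest in nuclei with few zone markers, at 45.1 and 233 CPM.

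Other members differed between the ranges too. *Erbb3* leaned to zone 3, with a ratio of zone 1 to zone 3 of 0.891 (0.840 to 0.945) and 0.719 (0.650 to 0.794). Its ratio between libraries was 0.693 in zone 1, 0.860 in zone 3 and 1.16 (1.001 to 1.34) in nuclei with few zone markers. *Areg* in the library labelled HKO stood at 6.48 CPM (38 UMIs) in nuclei with few zone markers, against 1.45 and 0.840 CPM (10 UMIs each) in zones 1 and 3, and 64.4% of its hepatocyte UMIs lay there. Without these nuclei its ratio between libraries was 3.51 (1.65 to 7.82). *Btc* and *Tgfa* were highest in the same range of that library, at 28.7 and 21.5 CPM. In zones 1 and 3 *Hbegf* had 23 and 2 UMIs (Flox) and 13 and 1 UMIs (HKO), at levels of at most 1.89 CPM, which gave ratios of zone 1 to zone 3 of 20.3 (5.02 to 178) and 22.5 (3.38 to 957). *Erbb4* did not differ between zones 1 and 3 beyond counting error in either library.

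*Nrg1* has been used in these livers as a marker of disease-associated hepatocytes, and was therefore set beside other markers of that state. Thinned hepatocyte nuclei were split by their UMIs of *Anxa2*, *Gdf15*, *Sox4*, *Klf6* and *Jun*, with *Nrg1* left out of the split. Nuclei with 2 or more such UMIs were 3.20% (186) and 5.19% (230) of thinned hepatocytes. With 0, 1 and 2 or more marker UMIs, the library labelled Flox had *Nrg1* in 1.10%, 2.49% and 3.76% of nuclei, and that labelled HKO in 5.69%, 7.03% and 16.1% (11.6 to 21.5). In the latter library nuclei without any marker UMI still held *Nrg1* more often than any class of the former, although the interval of the top class there, 1.53 to 7.60, includes that share.

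*Egfr* ran the other way in the library labelled Flox, with 27.7% (26.4 to 29.0), 26.0% and 19.4% (13.9 to 25.8) over the same classes, and stood at 8.75%, 8.11% and 6.52% in that labelled HKO, with intervals that overlap. *Erbb3* was found in 10.8%, 9.27% and 11.3% and in 9.48%, 8.78% and 11.3% of nuclei. *Cdkn1a* went from 1.03% to 3.23% and from 2.51% to 13.0% between the lowest and the highest class.

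**Figure D5:**
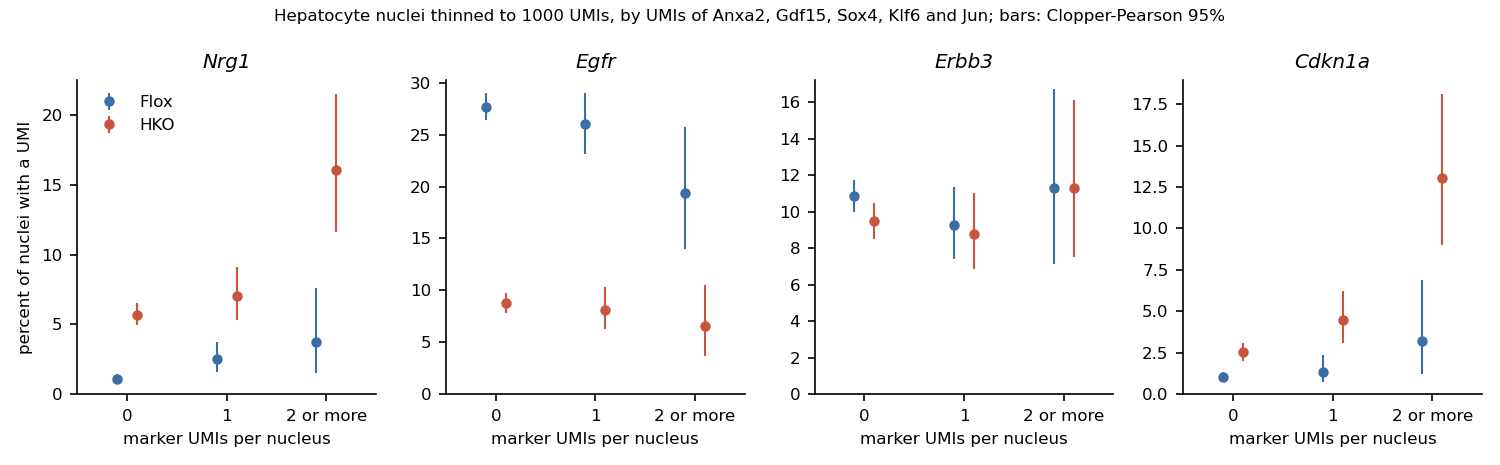
Percent of hepatocyte nuclei, thinned to 1000 UMIs, with a UMI of *Nrg1*, *Egfr*, *Erbb3* or *Cdkn1a* (vertical axes), by the number of UMIs of *Anxa2*, *Gdf15*, *Sox4*, *Klf6* and *Jun* in the nucleus (horizontal axis), with Clopper-Pearson 95% intervals, the library labelled Flox in blue and that labelled HKO in red. *Nrg1* reaches 16.1% in the highest class of the library labelled HKO, and *Erbb3* stays between 8.78% and 11.3%.

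Split the other way, by *Nrg1* itself, nuclei with *Nrg1* had *Klf6* in 14.8% (7.90 to 24.4) and 17.1% (13.0 to 22.0), against 3.49% and 6.68% of nuclei without it, and *Gdf15* in 16.0% and 12.2% against 9.03% and 6.90%. The Flox interval of *Gdf15*, 8.83 to 25.9, overlapped that of nuclei without *Nrg1*. *Jun* was in 11.1% and 9.79% against 6.59% and 8.81%, and *Anxa2* in 1.23% and 1.75% against 0.575% and 1.45%, with intervals that overlap. *Sox4* was in 0 of 81 and 6 of 286 nuclei with *Nrg1*, and in 4 of 5737 and 11 of 4145 of those without. *Cdkn1a* was in 2.47% and 8.04% of nuclei with *Nrg1* and in 1.13% and 3.06% of the others, where the first share rests on 2 nuclei. The receptors did not differ beyond counting error. *Egfr* was found in 24.7% and 8.04% of nuclei with *Nrg1* and in 27.2% and 8.56% of those without, and *Erbb3* in 13.6% and 6.99% and in 10.6% and 9.63%. With 81 and 286 nuclei, smaller differences were not detectable at this depth.

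The other genes of the pathway were counted as 4 lists of 24 genes in all, of which 19 had at least 200 UMIs in hepatocytes. None of the 19 passed 2-fold in either direction, against the 2.6% and 2.72% given above. The interval of the ratio lay above 1 for 10 of them and below 1 for 1, against 34.3% and 36.8% of all 11225 genes, and their median log2 ratio was 0.09.

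Of the 5 other ligands, *Nrg4*, a ligand of ERBB4 known as a hormone of fat tissue, was counted in hepatocytes at 122 and 134 CPM, a ratio of 1.10 (1.06 to 1.15). *Ereg*, which encodes epiregulin, had 63 and 52 UMIs in HSC (42.2 and 30.1 CPM, a ratio of 0.713), and 2 and 0 in hepatocytes. *Epgn*, *Nrg2* and *Nrg3* had at most 2 UMIs in any type with at least 50 nuclei.

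Of the 6 sheddases and their partners, which free ligands from the cell surface, *Adam17* (23.8 and 28.3 CPM) and the iRhoms *Rhbdf1* (14.6 and 20.0 CPM) and *Rhbdf2* (25.1 and 32.0 CPM) had ratios of 1.19, 1.37 and 1.28 in hepatocytes, while *Adam10* stood at 32.2 CPM in both libraries. Macrophages held *Adam17* at 284 and 292 CPM, a ratio of 1.03. Of the 7 adaptors, *Pik3r1*, the regulatory subunit of phosphoinositide 3-kinase, had the highest ratio in hepatocytes, 236 and 384 CPM or 1.63 (1.58 to 1.67). *Grb2*, *Shc1*, *Gab1*, *Sos1*, *Sos2* and *Ptpn11* had ratios of 0.905 to 1.11.

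A further 6 genes were listed as brakes, a role that was not tested here for any of them. Of these, *Errfi1*, the feedback inhibitor of EGFR, was counted at 5411 and 5518 CPM in hepatocytes. Its ratio was 1.02 (1.01 to 1.03), beside the *Egfr* ratio of 0.260. *Lrig3* was lower, at 122 and 89.6 CPM with a ratio of 0.732 (0.698 to 0.767). The ubiquitin ligases *Cbl* (1.31), *Cblb* (1.20) and *Rnf41* (1.38), which mark ErbB receptors for degradation, had ratios above 1 with intervals that did not hold 1. *Lrig1* had a ratio of 0.966 with an interval that held 1.

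The genes whose levels were most like those of a member over the 14 points of 7 types and 2 libraries were listed as a description. The points share libraries, depth and free RNA. For *Egfr* these were *Oaf* (r = 0.917), *Plpp5* and *Gm45051*, for *Nrg1* *Slco2a1* (r = 0.919), for *Erbb3* *Arhgef26* (r = 0.974), *Immp2l* and *Sdr42e1*, and for *Erbb4* *Gm12576* (r = 0.992), *Stxbp5l* and *Rnf32*. Those of *Hbegf* were *Pdgfb* (r = 0.966), *Nsd2* and *Ube2t*, and those of *Btc* *Entpd2* (r = 0.982), *Myrf* and *Bdnf*. *Tgfa* was most like *Gm29107* (r = 0.959), *Cyp2j6* and *Bcar1*, and *Egf* most like *Rpusd2* (r = 0.958), *Asb1* and *A930012O16Rik*.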

How the data were processed

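Pooled frozen liver tissue gave sorted nuclei for 10x Genomics 3′ libraries. The authors deposited raw UMI counts per gene and barcode, not normalized. They had counted exonic reads alone with Cell Ranger 8.0.1 (mm10, GRCm38). Each matrix was used as 1 sample, so p-values were not computed. The members and gene lists were chosen with earlier results of these data known.

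Nuclei with at least 300 detected genes were kept, and the highest Scrublet scores (scanpy 1.11.5) were removed as doublets at 0.8% per 1000 barcodes, which was 7.49% and 8.58% of them. A nucleus took the non-hepatocyte type that led its marker UMIs by 1.5 times, with at least 2 UMIs and 0.1% of its total and under 0.5% of hepatocyte markers. It was called a hepatocyte with at least 0.15% and 3 UMIs of hepatocyte markers and no such type. These limits, the zone limits (0.3 and 0.7, at least 3 zone marker UMIs) and the few-marker range were set after the marker UMIs had been seen, without the members. Clusters of each library alone gave the same type to 97.8% and 96.8% of assigned nuclei. Some nuclei counted as macrophages lay in clusters with dendritic cell markers.

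CPM are summed UMIs per 1000000. Intervals are exact Poisson (CPM), exact conditional binomial (ratios) and Clopper-Pearson (shares). Log2 ratios carry a pseudocount of 1 CPM. A count of 0 was given the level that 3 counts allow, or the upper end of its interval where intervals were compared. Genes were compared between libraries where both together gave 200 UMIs. The text names the 10 members, the fixed pathway lists, and for each member with 200 UMIs the 3 genes with the highest Pearson correlation of log2 CPM, some of which are not reported here. On simulated counts of the 11225 hepatocyte genes, 95.2% of the ratio intervals held the simulated ratio. These counts were Poisson draws, the model that the intervals assume, with no spread between nuclei, mice or libraries. They check the computation of the intervals and not how well that model describes these data. Alternatives covered the typing, doublets, the gene minimum, pseudocount, scaling (edgeR 4.0.16 TMM), thinning depth, zone limits and UMI minimum. Python 3.11.15, numpy 2.4.6, scipy 1.17.1 and R 4.3.3 were used.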

Additional observations from a re-analysis of the deposited data

How the results depend on the processing

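Across 39 results, 137 alternative values were computed. Of these, 114 stayed within the counting interval of the value reported (or within 1.5 times a count) and 23 moved outside it. None reversed a ratio whose interval did not hold 1. Shares of a gene's UMIs by type and counts of genes past 2-fold are among the 137 but could not reverse by the rule used. With a pseudocount of 10 CPM the log2 ratio in hepatocytes was -1.83 for *Egfr* (from -1.93) and 2.03 for *Nrg1* (from 2.55), which follows from the larger constant. In nuclei without a marker UMI of any other type the log2 ratio of *Nrg1* was 2.10, and the cause was not tested. *Nrg1* detection, HKO over Flox, was 4.64 at 1000 UMIs per nucleus, 7.17 at 500 UMIs, and 5.27 in another random draw that was added after the data had been seen. With doublets kept, hepatocytes gave 76.1% and 84.5% of *Nrg1* UMIs, and with types from clusters 92.3% in the library labelled HKO. Without a minimum of UMIs, 2739 genes were at least 2-fold higher and 2629 lower in hepatocytes, with 4705 past 2-fold in HSC and 4429 in endothelial nuclei, since genes with few UMIs were then included. The *Btc* ratio passed 2 narrowly, at a log2 ratio of 0.97, which became 0.78 in nuclei without a marker UMI of another type. The *Hbegf* log2 ratio in macrophages, whose interval held 1, went from -0.25 to 0.50 in such nuclei. No paired analysis was possible because there was 1 library per genotype, and no library could be left out.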
